A study of Mus musculus with 12 samples.

Results

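Livers of Mtdh knockout mice carrying a mammary tumour were compared with livers of healthy wild-type mice, the pair of groups that lie at opposite corners of a design of genotype by tumour. The comparison used 6 of the 12 RNA-sequencing libraries of the study and asked how far a tumour-bearing knockout liver lies from a healthy wild-type one. Genes entered it when 3 or more of these 6 libraries held a value of 10 or higher, which kept 15794 of the 22557 genes in the deposited table. Of the kept genes, 11821 were at or above 10 in all 6 libraries. Another 25 were kept through the KO_tumor libraries with no WT_no_tumor library at 10, and 75 through the WT_no_tumor libraries with no KO_tumor library at 10.

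The mice were females of matched age, and each library came from the whole liver of a different mouse. WT_no_tumor mice were wild type (WT) and had no tumour. KO_tumor mice had a knockout (KO) of Mtdh and bore a Py8119 tumour, which grows from a mouse mammary cancer line. The other groups, used only to share the estimate of spread and for values given beside the main ones, were KO_no_tumor (Mtdh KO without a tumour) and WT_tumor (WT with a Py8119 tumour), again with 3 libraries each. The labels do not say how the knockout was made or whether it covers every cell of the body. Genotype and tumour differ together between KO_tumor and WT_no_tumor, so the effects of the knockout and of the tumour cannot be told apart in this comparison.

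Mtdh encodes metadherin, a protein of the endoplasmic reticulum and nucleus that is best known from studies of cancer spread. The liver makes most plasma proteins, and inflammatory cytokines such as interleukin-6, acting through the transcription factor STAT3, raise its output of a set called acute phase proteins. The nuclear receptor PPAR-alpha drives hepatic genes for fatty acid oxidation. Growth hormone controls Igf1 and also genes that differ between the sexes, among them the major urinary proteins.

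A value in the table is a normalized read number. The value of 1 read, estimated from the steps between low values, gave depths of 12700000 reads for KO_tumor replicate 1 and 27600000 to 43000000 for the other 5 libraries of the comparison. KO_tumor replicate 1 stood apart in other measures too. It had 14899 genes above 0 (18935 to 20304 in the other 5), and its mean correlation with the other libraries of the series was 0.813 (0.897 to 0.927). Where leaving it out moved a list's median by a large factor, the median without it is given. The libraries expressed the hepatocyte markers at high values throughout: Alb, the albumin gene, took 7.16% to 12.34% of each library's total. Every difference below is the difference between group means of log2(value + 1) from limma, written as log2 difference ± its standard error (SE), with 3 libraries per group. The scale understates changes of genes with low values, and in whole liver fewer cells of a type cannot be told apart from less RNA per cell.

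Only 4 of 15794 genes (0.0253%) passed the threshold of an adjusted p under 0.05 in limma with Benjamini-Hochberg adjustment. Tgfbi and Rpl31-ps8 were higher in KO_tumor (0.0127%), and Mtdh and Gm17644 were lower (0.0127%). Before adjustment 2845 genes (18.0%) had a p under 0.05, of which 1216 (7.7%) were higher in KO_tumor and 1629 (10.3%) lower. The 3 KO_tumor values lay wholly above the 3 WT_no_tumor values for 1689 genes (10.7%) and wholly below them for 1975 (12.5%). Without KO_tumor replicate 1, the groups did not overlap for 2534 genes above and 2532 below, and 3 of the 4 called genes passed again, Tgfbi being the one that did not (adjusted p = 0.114, limma with Benjamini-Hochberg adjustment). A fit in which limma estimated a weight for each library gave KO_tumor replicate 1 a weight of 0.129 and called 995 genes (6.3%), 438 higher (2.77%) and 557 lower (3.53%), the 4 genes among them. With 1 library left out in turn the count ran from 0 without WT_no_tumor replicate 2 (1604 at an unadjusted p under 0.05) to 186 without KO_tumor replicate 2. It was 23 without WT_tumor replicate 2, 2 without WT_no_tumor replicate 1, KO_no_tumor replicate 3, WT_tumor replicate 1 or WT_tumor replicate 3, and 3 or 4 without any other library. The count of calls therefore depends on how single libraries are treated. The median SE of a log2 difference in the unweighted fit was 0.44.

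Mtdh itself, which checks the genotype labels, lies at chr15:34082840-34145770 (mm39). Its values were 4330, 5370 and 4970 in the WT_no_tumor libraries and 1060, 380 and 323 in the KO_tumor libraries. All 3 KO_tumor values lay below all 3 WT_no_tumor values, and KO_tumor replicate 1 was the highest of the knockouts. Mtdh fell by 3.26 ± 0.35 on the log2 scale (adjusted p = 0.00452, limma with Benjamini-Hochberg adjustment), and the call was lost without WT_no_tumor replicate 2 alone (adjusted p = 0.0553, limma). The KO_no_tumor libraries read 584, 436 and 627, and the WT_tumor libraries 5290, 3950 and 5700, so the labels of genotype were matched in each of the 12 libraries.

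Tgfbi, at chr13:56757336-56787375 (mm39), encodes an extracellular matrix protein that was first found as a target of transforming growth factor beta. Its values were 490, 541 and 470 in WT_no_tumor and 2490, 1250 and 1990 in KO_tumor. Even the lowest KO_tumor library exceeded the highest WT_no_tumor library by more than the whole spread of the WT_no_tumor values. Tgfbi rose by 1.88 ± 0.28 (adjusted p = 0.0394, limma with Benjamini-Hochberg adjustment), and by 1.66 without KO_tumor replicate 1. The KO_no_tumor libraries read 422, 602 and 693, while the WT_tumor libraries read 1190, 1780 and 1190, a log2 difference of 1.44 from the same WT_no_tumor libraries that also passed (adjusted p = 0.0321, limma with Benjamini-Hochberg adjustment). Tgfbi was thus high in both tumour-bearing groups. The call was lost when any of 9 of the 12 libraries was left out (adjusted p 0.0545 to 0.243, limma with Benjamini-Hochberg adjustment), the exceptions being KO_no_tumor replicate 1, WT_tumor replicate 2 and KO_tumor replicate 2. It was also lost when protein-coding genes alone were tested (adjusted p = 0.0543, limma).

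The other called genes were low or undetected in a whole group, and both passed the filter on low values through 1 group alone, so that a large difference was built into their entry. Rpl31-ps8, at chr15:90648482-90648859 (mm39), is a processed pseudogene of the ribosomal protein gene Rpl31. Its values were under 1 in the 3 WT_no_tumor libraries (0.769, 0.201 and practically 0) and 726, 130 and 208 in KO_tumor, at least 113-fold higher when the WT_no_tumor libraries are set at a floor of 3 reads each. The fitted log2 difference was 7.72 ± 0.93 (adjusted p = 0.00895, limma with Benjamini-Hochberg adjustment, and 0.0553 without WT_no_tumor replicate 2). KO_no_tumor libraries read 34.9, 62.1 and 44.7 and no WT_tumor library exceeded 0.486, so the signal was present in the 6 knockout libraries and below 1 in the 6 wild-type ones. The 378 bases of the pseudogene are 100% identical to the stretch of Rpl31 transcripts they align with, and every 50-base stretch of it occurs elsewhere among annotated transcripts, so its reads cannot be told apart from those of Rpl31 by sequence. Rpl31 did not pass (log2 difference 0.27 ± 0.36).

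Gm17644 is a long non-coding RNA gene at chr1:12737787-12743314 (mm39), named here after its values were seen because it is 1 of the 4 calls. Its values were 70.8, 105 and 59.4 in WT_no_tumor and practically 0 in all 3 KO_tumor libraries, at least 20.2-fold lower against a floor of 3 reads per library. The fitted log2 difference was −6.27 ± 0.88 (adjusted p = 0.0296, limma with Benjamini-Hochberg adjustment). Unlike Rpl31-ps8 it did not follow genotype, since the KO_no_tumor libraries read 227, 17.1 and 50.2 and the WT_tumor libraries 122, 77.5 and 107. KO_tumor was the sole group with all 3 values practically 0, and the part of read assignment in this was not tested. The call was lost without any of 7 libraries: the 3 of WT_no_tumor, KO_no_tumor replicate 3, WT_tumor replicates 1 and 3 and KO_tumor replicate 3 (adjusted p 0.0545 to 0.281, limma with Benjamini-Hochberg adjustment). Of its 50-base stretches 19.9% occur in other annotated transcripts.

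**Figure D1:**
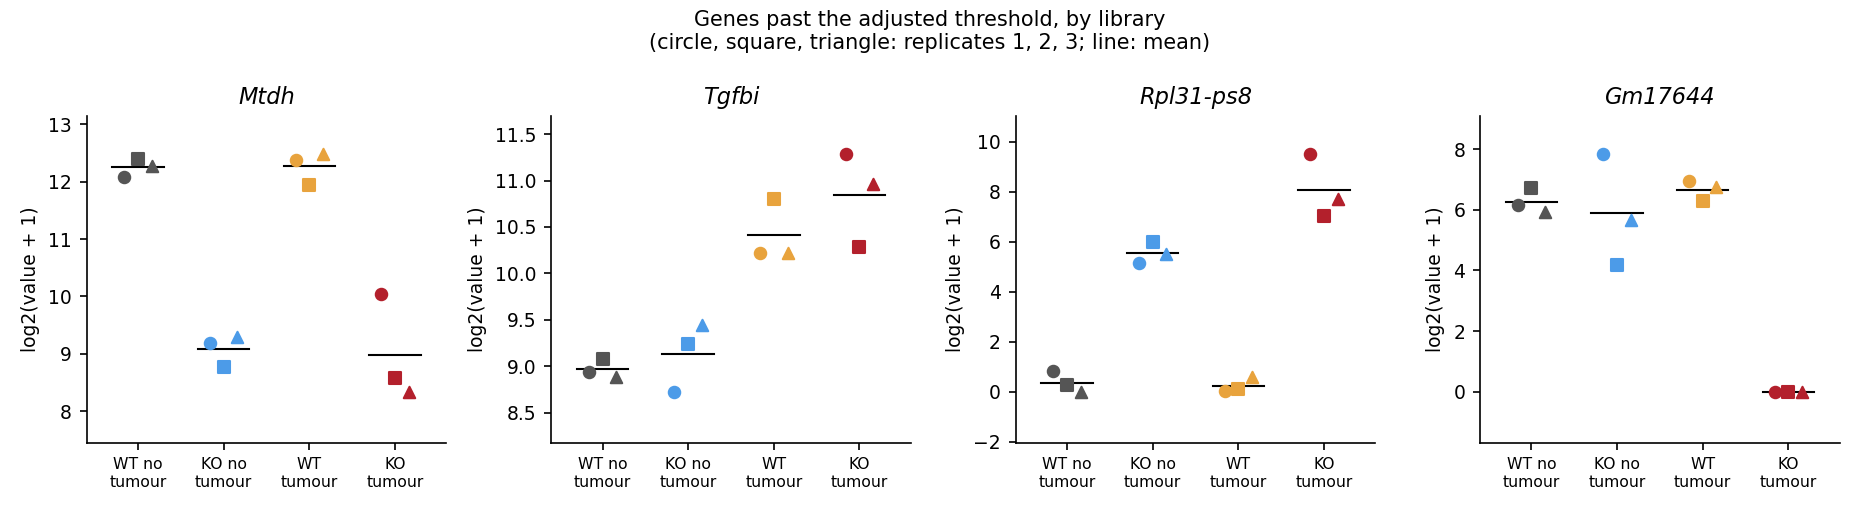
Values of the 4 called genes in each library on the log2(value + 1) axis, by group, with circles, squares and triangles for replicates 1, 2 and 3 and a line at the mean of the 3. Mtdh is low in both KO groups, Tgfbi is high in both tumour groups, Rpl31-ps8 is above 5 in KO libraries and below 1 in WT libraries, and Gm17644 is at 0 in KO_tumor alone.

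Over the whole set of genes the distance between the groups was little more than the distance within them. Distance here is the root mean square of the log2 differences over the 15794 genes. It averaged 1.52 between KO_tumor and WT_no_tumor libraries and 1.46 within the groups, a difference of 0.06 (one-sided exact permutation p = 0.2, where 3 libraries against 3 allow no p below 0.1). KO_tumor replicate 1 lay 2.34, 2.51 and 2.4 from the WT_no_tumor libraries, but also 2.31 and 2.27 from its own group. KO_tumor replicates 2 and 3 lay 0.87 from each other and 0.82 to 1.31 from the WT_no_tumor libraries, which lay 0.99 to 1.2 from one another. Without replicate 1 the difference between and within was 0.03, and without WT_no_tumor replicates 1, 2 and 3 it was −0.10, −0.17 and −0.09. Those 2 KO_tumor livers were therefore about as far from a healthy wild-type liver as healthy wild-type livers were from each other.

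The libraries were also compared gene by gene. The median size of the log2 difference from the WT_no_tumor mean was 1.04 in KO_tumor replicate 1, 0.36 in replicate 2 and 0.46 in replicate 3. Each WT_no_tumor library, set against the mean of the other 2, gave 0.37, 0.44 and 0.35. Differences of more than 2-fold were seen for 51.3% of genes in KO_tumor replicate 1, against 13.9% and 19.4% in replicates 2 and 3 and 15.7% to 20.5% in the WT_no_tumor libraries. A marked excess was thus seen only in the shallowest library among these 6, in which 31.2% of genes were more than 2-fold lower. KO_tumor replicate 3, at a median of 0.46, stood slightly above all WT_no_tumor libraries. Each WT_no_tumor library was set against a mean of fewer libraries than the KO_tumor ones were, which can enlarge its differences. Long non-coding RNAs illustrate the gap between replicates: the median log2 difference over 1096 tested ones was −2.73 in replicate 1 but −0.03 and −0.09 in replicates 2 and 3. Over 29 tested small nuclear RNAs, however, all replicates were off, with medians of −1.68, 0.7 and 1.14.

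**Figure D2:**
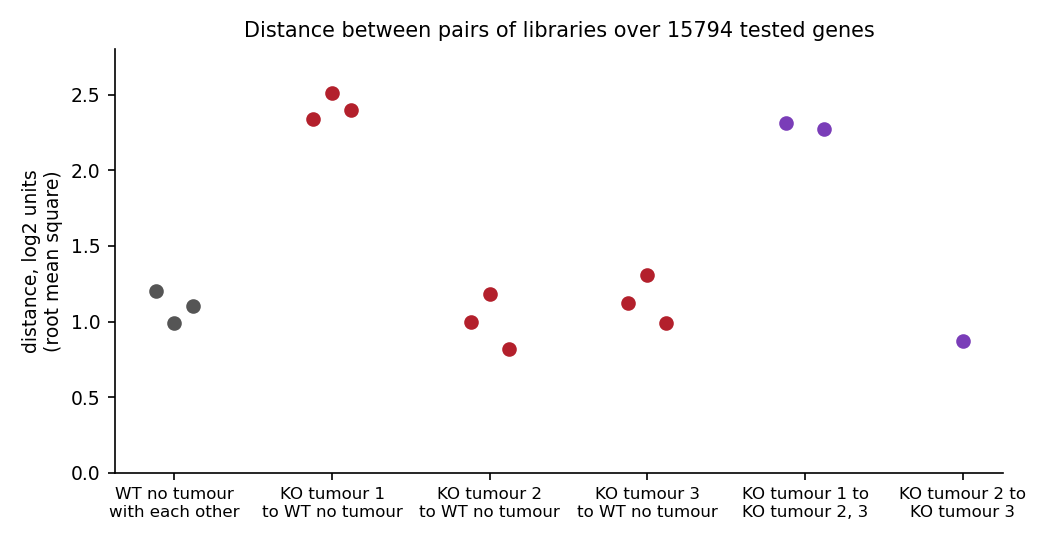
Distance (root mean square of log2 differences) between pairs of libraries, each point a pair. KO_tumor replicate 1 lies above 2 from every other library shown, while replicates 2 and 3 lie between 0.82 and 1.31 from WT_no_tumor libraries, which are 0.99 to 1.2 apart.

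The acute phase list had the largest median of the 51 gene lists. Of its 31 tested members none passed the adjusted threshold, 19 were higher and 1 lower at an unadjusted p under 0.05 (background 7.7% and 10.3%), and 18 lay wholly above and 1 wholly below WT_no_tumor (background 10.7% and 12.5%). The log2 difference was positive for 28 of the 31 with a median of 1.14, where 45.3% of all tested genes were positive and 54.7% negative, with a median of −0.09. Without KO_tumor replicate 1 the median was 1.03, so the list does not rest on that library. It differed between the knockout livers, however: the median difference from WT_no_tumor was 1.45, 0.33 and 1.52 in KO_tumor replicates 1, 2 and 3.

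Socs3, the feedback inhibitor of interleukin-6 signalling, read 75.6, 51.5 and 63.4 in WT_no_tumor and 182, 298 and 430 in KO_tumor. Its groups did not overlap and its log2 difference was 2.17 ± 0.39. Itih3, a heavy chain of the inter-alpha-trypsin inhibitor family of plasma proteins, read 5650, 4770 and 6740 against 19800, 10000 and 21400, again without overlap, with a difference of 1.52 ± 0.28. Both stood at an adjusted p of 0.0771 (limma with Benjamini-Hochberg adjustment), just short of the threshold, and both passed in the fit with library weights. Socs3 also passed without KO_tumor replicate 1 (2.49, adjusted p = 0.0337, limma), and Itih3 after quantile normalization (1.65, adjusted p = 0.0271, limma). Fga, the fibrinogen alpha chain, read 28600, 25900 and 33600 against 114000, 59100 and 83800, a difference of 1.5 ± 0.3. In all of these KO_tumor replicate 2 or replicate 1 gave the lowest knockout value, still above every healthy one. Lrg1, a plasma glycoprotein of the acute phase that also marks neutrophils, read 2180, 1270 and 3020 against 5930, 3090 and 10500.

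Not every acute phase gene had this pattern. Saa1, the serum amyloid A gene that rises most steeply in mouse inflammation, read 11.3, 12.6 and 34.1 in WT_no_tumor and 19.7, 116 and 205 in KO_tumor, with overlap and a difference of 2.14 ± 1.03 that did not pass. The overlap came from KO_tumor replicate 1 alone. Without that library the groups were apart and the difference was 3.1 (adjusted p = 0.413, limma), and with library weights Saa1 passed (3.08, adjusted p = 0.0264, limma). In WT_tumor it read 3980, 359 and 1150, and there it passed (6.03 against the same WT_no_tumor libraries, adjusted p = 0.0203, limma with Benjamini-Hochberg adjustment). Crp, the C-reactive protein gene, which is not a strong acute phase gene in mice, was the member that lay wholly below: it read 17300, 22400 and 17300 against 10100, 7900 and 11900. It was picked out after its values were seen.

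Side by side, and with the WT_no_tumor libraries shared, the acute phase median was 1.14 in KO_tumor and 1.87 in WT_tumor, with 0 and 15 members called (0.0253% and 0.753% of all genes). The difference of those comparisons is KO_tumor against WT_tumor, which had a median of −0.60 over the list, 0 called members (1 higher and 11 lower at an unadjusted p under 0.05, limma, against 6.84% and 7.88% of all genes) and 4 called genes in all (0.0253%). The KO_no_tumor median against WT_no_tumor was 0.25.

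**Figure D3:**
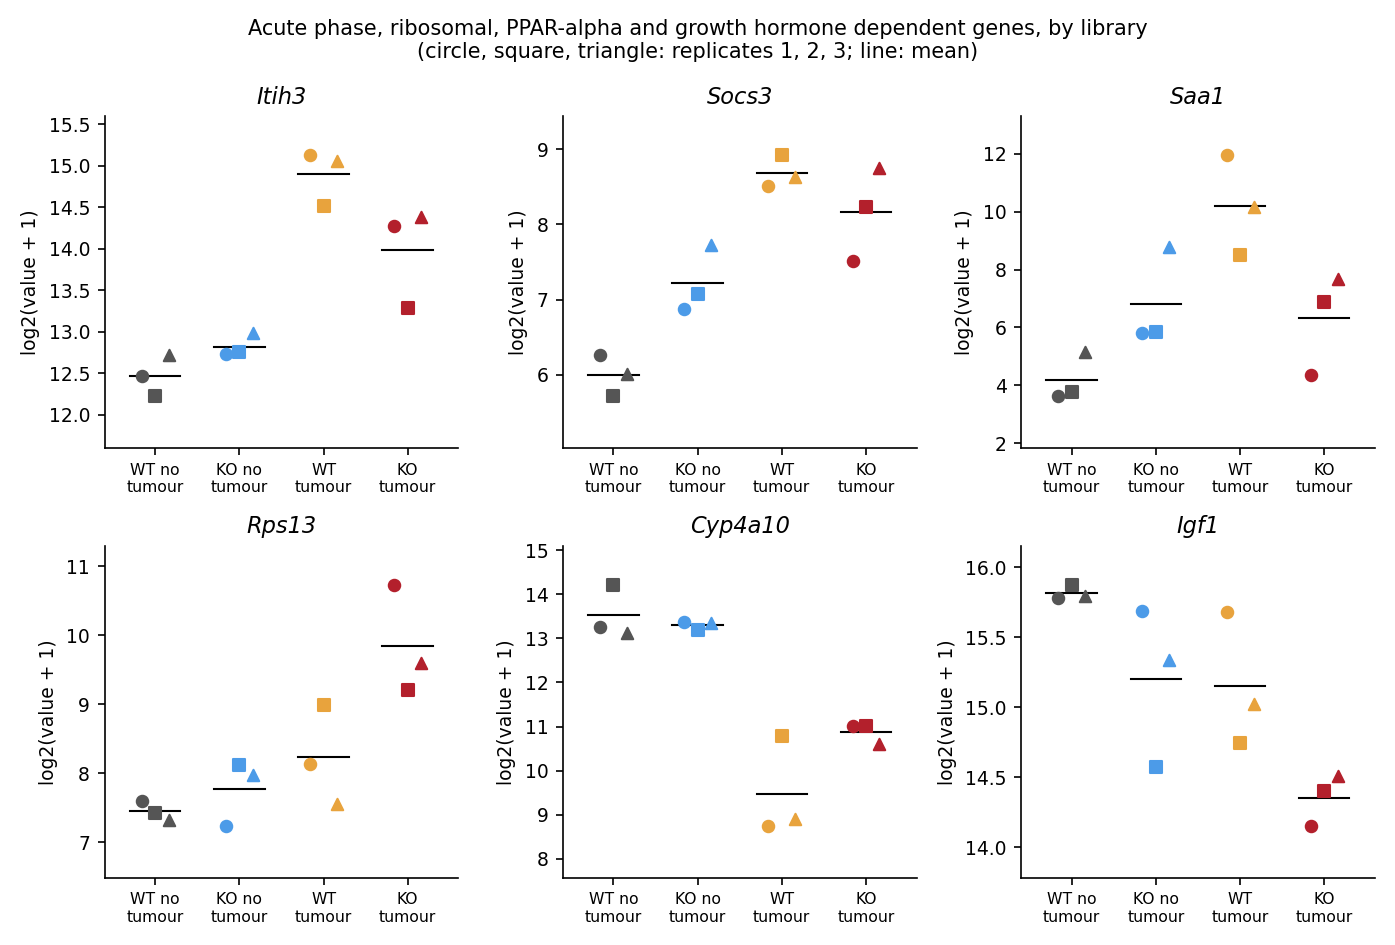
Values of 6 genes in each library on the log2(value + 1) axis, by group, with the replicates as circles, squares and triangles and a line at the mean. KO_tumor lies above WT_no_tumor without overlap for Itih3, Socs3 and Rps13 and below it for Cyp4a10 and Igf1, whereas Saa1 overlaps and is far higher in WT_tumor.

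STAT factors are known to bind DNA at the letters TTCNNNGAA. This motif was searched on both strands in the 250 bases before the start of each gene in the RefSeq promoter table (GRCm38.p6), which matched 10851 of the 15794 tested genes. It occurred in 6.29% of those promoters, and in 7 of the 25 acute phase promoters in the table: Apcs, Fga, Fgb, Hamp, Itih4, Socs3 and Steap4. The log2 differences of these 7 were 0.89, 1.5, 0.82, 0.58, 1.14, 2.17 and 0.82 in that order. Of them 5 lay wholly above WT_no_tumor, the exceptions being Apcs and Hamp. Among all 31 tested acute phase members 18 did so, and 10.7% of all tested genes, so the holders were not set apart from their list. In promoters of interleukin-6 and STAT3 signalling genes the motif occurred in 1 of 19 (5.26%). A match is a description of letters and not of a site in use. The sequences shown are those of the acute phase genes with the clearest separation that hold the motif, then a ribosomal protein gene described further on, and Tgfbi, the called protein-coding gene besides Mtdh, which holds neither that motif nor the ETS motif given further on. Each runs 5′ to 3′ from 250 bases before the RefSeq start to the base before the most upstream transcript start matched in the window, and capitals mark the motif.
Socs3 (chr11:117969452-117969616, strand -): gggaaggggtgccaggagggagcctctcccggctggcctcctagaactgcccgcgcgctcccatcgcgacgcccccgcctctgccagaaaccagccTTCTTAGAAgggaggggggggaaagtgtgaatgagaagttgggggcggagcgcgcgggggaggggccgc
Fga (chr3:83025903-83026075, strand +): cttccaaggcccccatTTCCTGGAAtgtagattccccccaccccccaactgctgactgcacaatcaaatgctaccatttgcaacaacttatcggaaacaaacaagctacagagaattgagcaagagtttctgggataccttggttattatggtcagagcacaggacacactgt
Rps25 (chr9:44407464-44407659, strand +): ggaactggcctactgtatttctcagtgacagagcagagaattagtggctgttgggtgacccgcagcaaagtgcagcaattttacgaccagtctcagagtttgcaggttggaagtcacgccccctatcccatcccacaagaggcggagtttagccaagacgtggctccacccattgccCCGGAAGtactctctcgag
Tgfbi (chr13:56609336-56609522, strand +): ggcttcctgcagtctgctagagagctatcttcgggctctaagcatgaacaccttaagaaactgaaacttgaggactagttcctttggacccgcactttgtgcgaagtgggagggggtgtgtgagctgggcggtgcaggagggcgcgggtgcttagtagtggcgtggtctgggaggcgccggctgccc
The Socs3 motif begins 154 bases and the Fga motif 234 bases before the RefSeq start.

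The complement, coagulation and hepatocyte core lists had smaller medians in the same direction as the acute phase list. Complement genes, which encode a plasma cascade of innate immunity, were positive in 26 of 27 tested members with a median of 0.72 (0.58 without KO_tumor replicate 1), and 14 lay wholly above and 0 below (background 10.7% and 12.5%). None passed the adjusted threshold in the unweighted limma fit, and 15 were higher at an unadjusted p under 0.05 (background 7.7%). Masp2, a protease that starts the lectin pathway, read 1350, 1490 and 1320 against 3900, 2050 and 2820, and C1s1, a protease of the classical pathway, read 4510, 3720 and 4000 against 9290, 5730 and 8220. Both separated fully, with differences of 1.03 ± 0.21 and 0.9 ± 0.19. Coagulation and fibrinolysis genes were positive in 21 of 27 with a median of 0.46. Plg, the plasminogen gene, read 17300, 12700 and 16400 against 46600, 20900 and 35400. Ambp, the precursor of alpha-1-microglobulin and bikunin, was among the hepatocyte core genes, which had 14 of 19 positive and a median of 0.62, and read 9290, 8050 and 9690 against 25600, 15400 and 19800. Its difference was 1.15 ± 0.24.

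Signalling and stress genes near the acute phase were mixed. Of 21 tested genes of interleukin-6 and STAT3 signalling 17 were positive, with a median of 0.41, and Stat3 itself read 2280, 1570 and 2010 against 3650, 2890 and 4400 (0.9 ± 0.21). Genes of the unfolded protein response were positive in 15 of 24 with a median of 0.29. Hspa5, the main chaperone of the endoplasmic reticulum, read 7220, 5550 and 9000 against 13700, 10300 and 10300, without overlap. Immediate early genes had a median of 0.57 (14 of 20 positive; 0.88 after quantile normalization), NF-kB targets 0.29 and interferon-stimulated genes 0.27. Antigen presentation genes had 18 of 22 positive and a median of 0.74, and H2-T23, a non-classical class I molecule, read 610, 392 and 645 against 2630, 883 and 1600. The median of that list was also 0.75 in KO_no_tumor against the same WT_no_tumor libraries.

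Cytosolic ribosomal proteins, the structural proteins of the translating ribosome, were the list with the most members apart. Of 47 tested members 36 lay wholly above WT_no_tumor (background 10.7%) and 0 below, and 34 were higher at an unadjusted p under 0.05 (background 7.7%). The median log2 difference was 1.10, with 41 positive, and 0.78 without KO_tumor replicate 1. None passed the adjusted threshold in the unweighted fit and 29 did with library weights, where 2.77% of all genes were called higher. The single knockout livers gave medians of 1.5, 0.68 and 0.99, so all 3 lay on the same side.

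Rps13, of the small subunit, read 193, 170 and 159 in WT_no_tumor and 1700, 587 and 770 in KO_tumor. Its difference was 2.39 ± 0.43, and the lowest KO_tumor library was more than 3 times the highest WT_no_tumor one. Rpl34, of the large subunit, read 531, 540 and 850 against 1690, 1300 and 1490, a difference of 1.25 ± 0.22. Both had an adjusted p of 0.0771 (limma with Benjamini-Hochberg adjustment). The 6 negative members were Rpl13, Rplp1, Rps14, Rps24, Rpl5 and Rps27, named after their values were seen. All 6 overlapped between the groups. In WT_tumor the median of the list against the same WT_no_tumor libraries was 0.34, and in KO_no_tumor 0.14, with 0 members called in either (7 and 2 higher at an unadjusted p under 0.05, limma, against 4.41% and 0.753% of all genes). KO_tumor against WT_tumor had a median of 0.69, with 0 members called and 25 higher at an unadjusted p under 0.05 in limma (6.84% of all genes).

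ETS factors, which are known to bind at many promoters of housekeeping genes, favour the letters CCGGAAG. This motif, searched in the same way, occurred in 11 of 36 ribosomal protein promoters in the table (30.6%) and in 12.9% of the promoters of tested genes. It overlaps no STAT motif in the printed promoters, of which Rps25 alone holds it. Rps25, whose promoter is printed with those of Fga and Socs3, holds it from 73 bases before the start and had a difference of 1.58 ± 0.29. Rps6, another holder of the motif, had 1.51 ± 0.28, whereas Rpl15 and Rps7, which also hold it, had 0.29 ± 0.18 and 0.29 ± 0.17 and overlapped. Rpl37, a further holder, overlapped too (0.89 ± 0.43). The remaining holders, Rpl19, Rpl35, Rpl38, Rplp2, Rps18 and Rps2, lay wholly above WT_no_tumor like Rps25 and Rps6. Of all tested ribosomal protein genes 36 of 47 did so, so the holders were not set apart from their list.

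Ribosomal protein transcripts are short, and transcript length moved with the difference between the groups. Over 469 protein-coding genes whose longest annotated transcript is under 1000 bases the median log2 difference was 0.55, and it was 0.30 from 1000 to 2000 bases, 0.07 from 2000 to 4000 and −0.20 above that. The shortest class had 117 genes higher and 8 lower at an unadjusted p under 0.05, and the longest class 209 higher and 865 lower. The slope had the same sign in each knockout liver, the shortest class standing at 0.89, 0.43 and 0.62 in replicates 1, 2 and 3. WT_tumor showed 0.04 for that class and KO_no_tumor 0.18. When a smooth trend of difference on length was removed from each library, the median of ribosomal proteins was 0.57, with 41 of 47 positive, and that of the acute phase list was 0.91. Among lists described before, the median of interleukin-6 and STAT3 signalling was higher after this step (0.49). Other medians were lower: 0.28 for hepatocyte core genes, 0.47 for complement and 0.25 for coagulation. Those of the unfolded protein response, antigen presentation, NF-kB targets and amino acid and urea cycle genes were 0.11, 0.43, 0.14 and 0.1, and that of major urinary proteins was −1.48.

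**Figure D4:**
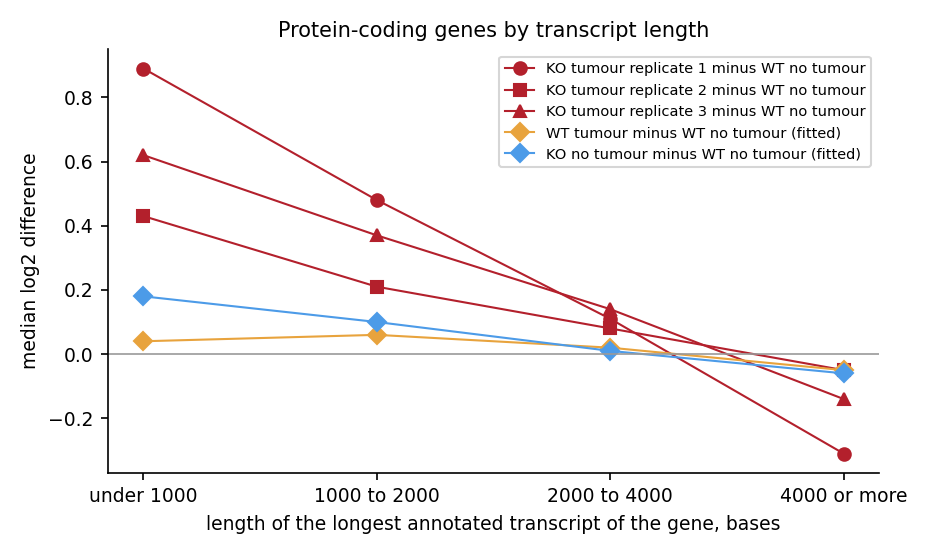
Median log2 difference of protein-coding genes from WT_no_tumor by the length of the longest annotated transcript, for each KO_tumor library and for the fitted WT_tumor and KO_no_tumor groups. The 3 KO_tumor lines fall from between 0.43 and 0.89 for the shortest transcripts to between −0.31 and −0.05 for the longest, and the other lines stay within 0.18 of 0.

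Other lists were near 0 once the length trend was removed. Nuclear-encoded subunits of oxidative phosphorylation were positive in 35 of 45 with a median of 0.52 (0.31 without KO_tumor replicate 1), and 23 lay wholly above WT_no_tumor and 2 below (background 10.7% and 12.5%). After the length trend was removed the median was 0.09. Members of the same complex differed in sign: Uqcrq, a small subunit of complex III, read 487, 488 and 499 against 1960, 1160 and 1390, while Uqcrc2, a large core subunit of it, read 6230, 7130 and 6070 against 3060, 4200 and 3730. Their differences were 1.58 ± 0.32 and −0.83 ± 0.18, both without overlap. Proteasome subunits had a median of 0.45 (29 of 36 positive), 0.27 without KO_tumor replicate 1 and 0.14 after the length trend was removed. Apolipoprotein and lipoprotein genes had 0.29, then 0.18 and 0.08 in the same order. Of 20 tested, 5 lay wholly above WT_no_tumor and 4 wholly below (background 10.7% and 12.5%). Apob, a preset hepatocyte marker, was lower without overlap, at 700000, 693000 and 525000 against 425000, 480000 and 444000. Apoa2, a short apolipoprotein gene of high-density lipoprotein, read 16900, 11300 and 17900 against 54400, 40100 and 50500, and its difference of 1.67 ± 0.4 became 0.83.

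Mitochondrially encoded genes, also short, lay on the other side. Of 15 tested, 13 were negative with a median of −0.47, and 10 lay wholly below WT_no_tumor (background 12.5%). With the length trend removed, the 13 protein-coding members were all negative with a median of −1.18. The exceptions before that step were the mitochondrial ribosomal RNAs, such as mt-Rnr2, which read 1260, 2090 and 2340 against 4820, 3370 and 3390. The RNA was depleted of ribosomal RNA before sequencing, so these values may vary with the depletion of each library, which was not tested. mt-Nd6, the single protein gene on the light strand, read 13000, 13000 and 7680 against 3610, 5010 and 4810 and had a difference of −1.3 ± 0.32. The medians in the knockout livers were −0.39, −0.48 and −0.58, and WT_tumor had −0.71 against the same WT_no_tumor libraries.

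PPAR-alpha targets were mostly lower. Of 29 tested members 22 were negative with a median of −0.43, 12 were lower and 1 higher at an unadjusted p under 0.05 (background 10.3% and 7.7%), and none passed the adjusted threshold. Cyp4a10, a fatty acid omega-hydroxylase and one of the most responsive targets of the receptor, read 9810, 19100 and 8920 in WT_no_tumor and 2080, 2080 and 1550 in KO_tumor. The groups were far apart and the knockout livers close together, with a difference of −2.65 ± 0.43 (adjusted p = 0.0771, limma with Benjamini-Hochberg adjustment). Acot4, an acyl-CoA thioesterase, read 15100, 22100 and 10500 against 4500, 8300 and 6090. Its difference was −1.31 ± 0.29.

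The receptor and the entry enzyme of mitochondrial fatty acid oxidation did not separate. Ppara read 6600, 5550 and 3240 against 3590, 3220 and 4500, and Cpt1a, carnitine palmitoyltransferase, read 5140, 6240 and 1990 against 2740, 2130 and 2870. The fatty acid oxidation list had a median of −0.09, the same as all genes, 0.06 after quantile normalization and 0.02 without WT_no_tumor replicate 2, with Hadhb and Decr1 its members of smallest p at −0.54 ± 0.19 and −0.74 ± 0.22. The PPAR-alpha median was −0.98 in WT_tumor against the same WT_no_tumor libraries, with 8 members called there (0.753% of all genes), and 0.05 in KO_no_tumor. KO_tumor against WT_tumor, the difference of these comparisons, had a median of 0.89 over the list and 0 called members (15 higher at an unadjusted p under 0.05, limma, against 6.84% of all genes).

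Lipid synthesis was higher by count, by less than the spread between livers for most genes. Of 22 tested lipogenesis genes 20 were positive with a median of 0.41, but 2 were higher and 1 lower at an unadjusted p under 0.05 (background 7.7% and 10.3%), and 1 lay wholly above (background 10.7%), shares near or below those of all genes. Fasn, fatty acid synthase, read 149000, 17900 and 156000 in WT_no_tumor and 248000, 180000 and 130000 in KO_tumor. The low value of WT_no_tumor replicate 2 set most of that difference (1.27 ± 0.69), and the list median without that library was −0.04. Thrsp, a lipogenic regulator, read 10400, 2710 and 7570 against 18400, 12000 and 11300, with the same library lowest. Srebf1, which encodes the transcription factor SREBP1, overlapped, and Rxra, the partner of PPAR-alpha on DNA, read 7510, 4310 and 4480 against 6250, 4480 and 6490, a difference of 0.11 ± 0.24. In KO_tumor against WT_tumor the lipogenesis median was 1.04 with 0 members called (11 higher at an unadjusted p under 0.05, limma, against 6.84% of all genes).

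Bile acid and xenobiotic metabolism showed little common direction. Cyp7a1, which catalyses the limiting step from cholesterol to bile acids, read 13400, 17500 and 6170 against 7460, 3180 and 12700, and the medians of bile acid genes, cytochromes P450 and conjugating enzymes were 0.05, 0.11 and 0.11. That of cytochromes P450 was 0.19 without KO_tumor replicate 1 and 0.27 after quantile normalization. Bile acid and conjugation medians turned negative when the length trend was removed (−0.03 and −0.17). Single genes were far apart all the same. Ugt2b37, a glucuronosyltransferase, read 212, 407 and 440 against 2.52, 47.6 and 71.8, and Sult2a8, a sulfotransferase, read 14500, 13500 and 11500 against 3450, 4520 and 6560. Cyp2a4 read 44800, 41900 and 23800 against 11500, 21600 and 11400. None of these passed the adjusted threshold, and Cyp2a4 has close copies with which it may share reads.

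Growth hormone dependent and sex-biased genes were mostly lower. Of 31 tested, 20 were negative with a median of −0.62 (−0.38 without KO_tumor replicate 1), and 16 lay wholly below WT_no_tumor and 8 wholly above (background 12.5% and 10.7%). Igf1, the main growth factor under growth hormone control, read 56200, 60100 and 56800 in WT_no_tumor and 18200, 21600 and 23300 in KO_tumor. The spread within either group was small beside the gap, and the difference was −1.46 ± 0.3 (adjusted p = 0.112, limma with Benjamini-Hochberg adjustment). In KO_no_tumor Igf1 read 52600, 24400 and 41400 and in WT_tumor 52400, 27400 and 33300, so every KO_tumor library lay below all the other 9. Major urinary protein genes had 15 of 18 negative and a median of −0.88, with KO_tumor replicate 2 at −0.15, and these near-identical genes share reads, so single members are uncertain. Esr1, the estrogen receptor, read 7340, 5110 and 6730 against 5090, 2880 and 2610.

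Genes of nitrogen and glucose metabolism lay on both sides. Cps1 and Otc, the first enzymes of the urea cycle, read 110000, 141000 and 112000 against 66800, 62100 and 66700 and 13500, 12200 and 12200 against 7020, 8290 and 8700, both lower without overlap. Bckdhb, of branched-chain amino acid breakdown, read 551, 467 and 475 against 1250, 773 and 1140, higher without overlap. The list of amino acid and urea cycle genes had a median of 0.28 (0.08 without KO_tumor replicate 1). Onecut1, a hepatic transcription factor, read 3750, 3710 and 2080 against 393, 1380 and 1370, a difference of −1.76 ± 0.45. Pygl, liver glycogen phosphorylase, read 13200, 9080 and 13300 against 19200, 15900 and 16900.

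**Figure D5:**
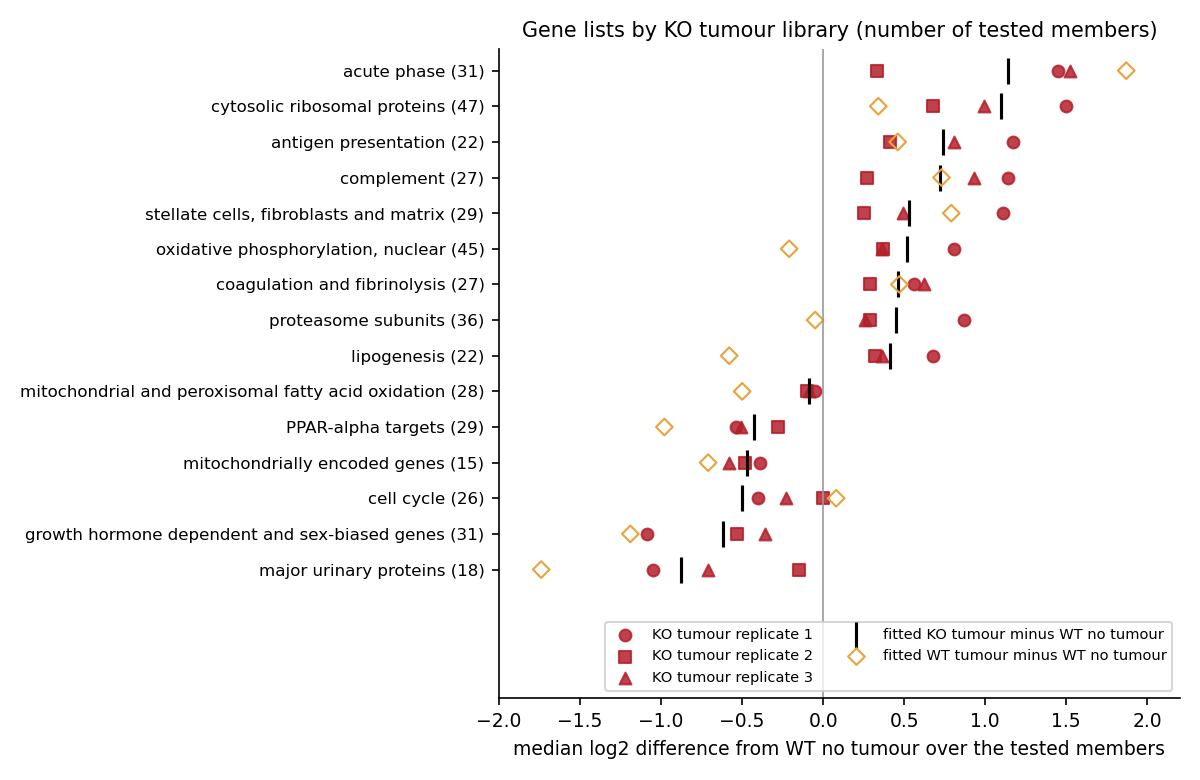
Median log2 difference from WT_no_tumor over the tested members of 15 gene lists, for each KO_tumor library (filled symbols), for the fitted KO_tumor group (bar) and for the fitted WT_tumor group (open diamond), both set against the same 3 WT_no_tumor libraries. Acute phase and ribosomal protein lists lie above 0 in all 3 knockout livers, and PPAR-alpha targets and mitochondrially encoded genes below 0.

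Markers of cells other than hepatocytes were measured in the same livers. Dcn, a matrix proteoglycan of stellate cells and fibroblasts, read 2840, 2760 and 3690 against 6970, 5860 and 7230, without overlap and with a difference of 1.11 ± 0.2 (adjusted p = 0.0771, limma with Benjamini-Hochberg adjustment). The matrix list had 23 of 29 positive and a median of 0.53, which was 0.28 without KO_tumor replicate 1, and the single livers gave 1.11, 0.25 and 0.49. The other preset stellate cell markers all overlapped. Lrat, a marker of quiescent stellate cells, read 2790, 1640 and 2770 against 1870, 1700 and 2640. Reln read 5020, 4300 and 5050 against 4280, 4580 and 4860, and Des read 83.5, 36.8 and 53 against 37, 73.5 and 64.6. Endothelial genes were positive in 22 of 27 (median 0.36). Clec4g, of the sinusoidal endothelium, read 526, 534 and 476 against 1130, 829 and 1170, and Pecam1 read 1940, 1080 and 2010 against 9260, 2930 and 3280.

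Immune markers differed by cell type. Monocyte and macrophage genes were positive in 14 of 20 with a median of 0.55 (0.48 and 18 of 20 positive without KO_tumor replicate 1), and 4 lay wholly above and 0 below (background 10.7% and 12.5%). Cd68, a lysosomal protein of macrophages, read 44, 73.6 and 108 against 325, 150 and 276, without overlap (1.74 ± 0.57). Mrc1, the mannose receptor of macrophages and sinusoidal endothelium, read 2440, 1790 and 2640 against 4140, 2960 and 3720, also without overlap (0.66 ± 0.21). Neither passed the adjusted threshold in the unweighted fit. Kupffer cell markers summed to 2820 to 5630 against 4500 to 6520. Neutrophil genes were positive in 7 of 9 with a median of 0.75 (1.06 and 9 of 9 positive without KO_tumor replicate 1). Only these 9 of 21 found were tested, and 2 lay wholly above. With the length trend removed, the neutrophil median was 0.26, and that of monocyte and macrophage genes 0.39. The Kupffer cell list moved from 0.29 to 0.06, whereas the matrix and endothelial medians were higher after this step, at 0.65 and 0.43. Mmp9, a matrix protease of neutrophils and macrophages, read 3.39, 2.1 and 17 against 143, 40.3 and 86.9, without overlap and with a difference of 3.69 ± 1.17 that did not pass in the unweighted fit and did with library weights (adjusted p = 0.04, limma). The 4 preset neutrophil markers were near 0 throughout, with a summed value of 3.39 to 27.5 in WT_no_tumor and 7.4 to 63.1 in KO_tumor. Among them S100a8 read 0, 1.05 and 18 against 0, 13.7 and 50, and S100a9 was at 0 in 2 KO_tumor libraries. T cell markers summed to 35 to 98.8 against 332, 92.3 and 81.5, KO_tumor replicate 1 being the high one, and Cd8a read 0, 42 and 26.5 against 81.4, 22.1 and 11.5. B cell markers summed to 233, 207 and 305 against 434, 311 and 331, without overlap. The B and plasma cell list was positive in 10 of 12 with a median of 0.96, and 4 lay wholly above (background 10.7%). None of its members had an unadjusted p under 0.05 in limma, and its median was 1.42 in KO_no_tumor against the same WT_no_tumor libraries. Erythroid markers summed to 1600 to 2990 against 6500, 1670 and 1970, with KO_tumor replicate 1 high. Markers of mammary epithelium summed to 74.8 to 85.1 in the healthy livers and 49.6 to 64.1 in the tumour-bearing ones. The part of any of these cells in the differences above was not tested.

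Circadian clock genes differed among the healthy livers themselves. The median level over its members, each centred over the 6 libraries, was 0.42 and 0.56 in WT_no_tumor replicates 1 and 2 and −0.78 in replicate 3, and −0.12, −0.06 and 0.08 in KO_tumor. Its median difference of 0.01 was −0.62 without WT_no_tumor replicate 3 and −0.15 without KO_tumor replicate 1. Nr1d1, a repressor of the clock, read 1260, 962 and 692 against 2530, 1320 and 1330. The labels give no time of collection.

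Cell cycle genes had 20 of 26 negative and a median of −0.50, but −0.17 without KO_tumor replicate 1. Rrm1, a subunit of ribonucleotide reductase, read 1250, 1290 and 1090 against 310, 849 and 732. Metallothionein Mt2 ranged widely in both groups, with 119, 664 and 76.7 against 5040, 568 and 2020. Fkbp5, a glucocorticoid target, read 2250, 1770 and 1420 against 646, 715 and 1260, a difference of −1.09 ± 0.31, and Fth1, ferritin heavy chain, read 8340, 4710 and 7770 against 25900, 13000 and 13100. Ccng1, a p53 target, read 4240, 6970 and 4670 against 2030, 3120 and 2410, a difference of −1.06 ± 0.23.

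Over all 51 lists, 40 had a positive and 11 a negative median, and the median level of a list separated the groups fully in 13 lists above and 5 below. Of single tested genes 10.7% lay wholly above and 12.5% wholly below. Lists share members and were chosen with earlier results known, so their counts are descriptive. Among the 13 was the list of Mtdh and its known partners, with a median of 0.23 and 0.04 without KO_tumor replicate 1. Mtdh was the sole list member called among 1020 tested. Of the 108 genes that the rule given with the methods names, 3 were called here, 17 in WT_tumor against the same WT_no_tumor libraries, and 1 in both, Tgfbi. Over the 15794 genes that comparison called 75 higher and 44 lower, KO_tumor against KO_no_tumor called 0 (2095 at an unadjusted p under 0.05), and KO_no_tumor against WT_no_tumor called Mtdh alone (0.00633%). The interaction of genotype and tumour called 0 genes in limma, with 724 at an unadjusted p under 0.05.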

How the data were processed

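Total RNA of powdered frozen liver was depleted of ribosomal RNA and sequenced on Illumina libraries, per the labels' protocols. The values are a normalized signal: the authors scaled each library's reads by a DESeq2 size factor, going by the name of the deposited table, and took no logarithm. STAR 2.7.8a, Partek and DESeq2 and the build mm39 are named in the submitters' processing notes. Neither the read counter nor its annotation release or strand setting is given in the sources used here, and overlapping or antisense genes may share reads. Columns were matched to samples by the description in the labels, and 0 were left unmatched.

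In each library 78.0% to 84.9% of low values were whole multiples (within 0.01 reads) of the value of 1 read, which was too few to recover reads, so no count model was used. Depth was estimated as the total divided by that value. Floors of 3 reads cover counting error only.

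Genes at 10 or higher in 3 or more of the 6 libraries entered limma 3.58.1 (R 4.3.3) as log2(value + 1), with a mean per group, all 12 libraries in 1 fit to pool the spread of the 4 groups, and eBayes with a mean-variance trend. P-values were two-sided, with Benjamini-Hochberg adjustment over all tested genes and a threshold of 0.05. On data simulated for this comparison with 15794 genes, the test recovered 14%, 38%, 62% and 72% of 50 genes changed by 1, 2, 3 and 4 on the log2 scale, and 5 of 15594 unchanged genes were called. The simulation gave all libraries the same spread for a gene. In the data KO_tumor replicate 1 stood apart (weight 0.129), so these rates may not hold for them. Distances were compared by exact enumeration of the 20 assignments of 6 libraries.

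The comparison, the 51 gene lists (1146 symbols, 1120 found, 1020 tested) and the tests were chosen with earlier results of these data known. Some genes belong to more than 1 list. Named genes were 9 preset genes (Mtdh, Rxra, Ppara, Cpt1a, Fasn, Srebf1, Cyp7a1, Cd8a and Saa1), the 12 largest increases and decreases of the called genes averaging 50 or more over the 6 libraries whose groups did not overlap, unnamed gene models left out, and for each list up to 4 called members by smallest p or, with none called, the 2 of smallest p. Further names are preset cell markers (Alb, Apob, Lrat, Reln, Des, S100a8 and S100a9), Rpl31 as the parent of a called pseudogene, and holders of a promoter motif. Any others are said to be named after their values were seen. Gene lengths came from GENCODE M21 transcripts (99.0% of tested genes matched by identifier). Sequences are RefSeq's, compared and searched with Biopython 1.88 under Python 3.11.15, pandas 2.3.3 and numpy 2.4.6, with figures by matplotlib 3.10.9.

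Alternatives tried were quantile normalization, rescaling to the same total, a pseudocount of 10, no filter, the filter over 12 libraries, library weights, robust eBayes, the 6 libraries alone, a replicate block, protein-coding genes alone and each library left out in turn. The removal of the length trend was added after the data were seen. One gene that the naming rule covers is not reported here.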

Additional observations from a re-analysis of the deposited data

How the results depend on the processing

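KO_tumor replicate 1 was the shallowest of the 6 libraries and had the fewest genes above 0, and the part of depth in the results was not tested. The 4 calls became 8 with no filter on low values, 10 under quantile normalization, 995 with library weights, 1 with protein-coding genes only (Mtdh) and 0 with the 6 libraries fitted alone, where 2153 genes had an unadjusted p under 0.05. Leaving out 1 library gave 0 to 186 calls, the lowest without WT_no_tumor replicate 2 and the highest without KO_tumor replicate 2. There were 2 without WT_no_tumor replicate 1, KO_no_tumor replicate 3, WT_tumor replicate 1 or WT_tumor replicate 3, and 23 without WT_tumor replicate 2. The causes were not tested. The other alternatives gave 3 to 6 calls. Mtdh lost its call with the 6 libraries alone (adjusted p = 0.111, limma with Benjamini-Hochberg adjustment) and without WT_no_tumor replicate 2 (0.0553), and its log2 difference ranged from −3.81 to −2.94. Tgfbi lost its call in 13 alternatives and Gm17644 in 10, with log2 differences of 1.66 to 2.15 and −6.45 to −3.11.

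With the replicate number as a block (replicate block), 6 genes were called, 3 of them among the 4. Samples with the same number in these groups deviated together by correlations of 0.1, 0.05 and 0.05 and came from different mice, so the numbers do not pair them.

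The difference of 0.06 between and within groups in distance was −0.10, −0.17 and −0.09 without WT_no_tumor replicates 1, 2 and 3, and 0.03 to 0.38 without a KO_tumor library. Signs turned for Cd8a without WT_no_tumor replicate 1 (range −0.26 to 2.46 with each library left out), for Rxra without WT_no_tumor replicate 2 or 3 (−0.03 to 0.37), and for Chil3 (−1.21 to 1.16 with each library left out, 0.04 rescaled to the same total, 0.77 by quantiles, 1.66 with library weights and 1.16 without both KO_tumor replicate 1 and KO_no_tumor replicate 3). Of the 51 list medians, 36 kept their sign in every alternative run and 15 did not.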
